A study of Mus with 4 samples.

Results

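Type I interferon-stimulated genes are described here across 4 mouse tumors or tumor pools, by the hairpin the tumor cells carried and by the diet of the host. The set was chosen by gene symbol from a list of 33 genes, and 31 of them had a probe set in the array's annotation, of 19505 named genes in all. Ifi44 and Ddx60 had none under that annotation and were left out. Each of the 31 members was read by 1 probe set. No measured value entered the choice of a member, though the list was drawn up with results of these arrays known.

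Tumors grew subcutaneously in the flanks of male BALB/cCrSlc mice from Renca cells, a renal adenocarcinoma line of BALB/c mice, and were taken after 2 weeks. The cells stably expressed either shNrf3, a hairpin aimed at Nrf3, or the control hairpin shCtrl. Nrf3, the cap'n'collar transcription factor that the knockdown targets, is encoded by Nfe2l3. Hosts were 4 to 6 weeks old when bought and were then fed for 17 weeks on NC, a normal chow, or on HFD, a diet high in fat. The 4 groups are shCtrl-NC (control hairpin, normal chow), shNrf3-NC (Nrf3 hairpin, normal chow), shCtrl-HFD (control hairpin, high-fat diet) and shNrf3-HFD (Nrf3 hairpin, high-fat diet), with 1 Affymetrix array each. All 4 share the cell line, the strain, the sex and the site of injection. The hairpins were in the tumor cells only, so host cells in the tumor carry neither. The labels do not say whether a line was 1 clone, or whether several tumors were pooled for an array.

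With 1 array in each group no difference has a replicate check, no test between groups was made, and precision is limited by the number of arrays. Values are log2 RMA levels, on which a difference of 1 is 2-fold, and a gene is counted as higher or lower at 2-fold or more. Where 4 levels follow each other they stand for shCtrl-NC, then shNrf3-NC, then shCtrl-HFD, then shNrf3-HFD. The negative control rows of the arrays had medians of 5.35 to 5.39 and 95th percentiles of 8.97 to 9.35. Of the 31 members 18 to 25 read above that percentile of their array, and at most 1 read below the control median. Nfe2l3 itself did not bear out the labels. In NC it read 6.22 under the label shCtrl and 5.56 under shNrf3, but in HFD 5.77 under shCtrl and 6.05 under shNrf3, all below the 95th percentile of the controls. Every direction below therefore rests on the labels of the arrays, and a knockdown difference (shNrf3 minus shCtrl) is a difference between labels. The epithelial genes Krt8, Krt18, Cdh1 and Epcam read above the 95th percentile of the controls on all 4 arrays, with Krt8 at 14.32 to 15.08. Of the renal markers Pax2, Pax8, Cdh16 and Lhx1 read below the control median on all 4.

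Type I interferons are secreted by cells that sense foreign or misplaced nucleic acid. They bind a receptor of Ifnar1 and Ifnar2, whose kinases Jak1 and Tyk2 activate a transcription factor complex that switches on the interferon-stimulated genes. Many of these genes also respond to interferon-gamma, and in tumors both cancer cells and infiltrating immune cells can express them.

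The members as a group read highest on the array labelled shCtrl-HFD and lower on the other 3. The median level over the 31 members was 9.95 on the array labelled shCtrl-NC, 10.17 on shNrf3-NC, 10.56 on shCtrl-HFD and 9.68 on shNrf3-HFD. The array labelled shCtrl-HFD gave the highest reading for 21 members, against 26.9% of all named genes and 36.9% of the 9948 genes at or above the median level of all rows (the better expressed genes), and the lowest for 0. The array labelled shNrf3-NC was highest for 8 members, against 21.4% of all named genes. The highest reading lay on shCtrl-NC for Parp14 and on shNrf3-HFD for Ifit2, 1 member each, against 29.1% and 22.6% of all named genes. For 18 members shCtrl-HFD and shNrf3-NC were the 2 highest arrays, against 16.7% of all named genes and 23.6% of the better expressed ones, and for 12 members after cyclic loess scaling. The lowest reading lay on shCtrl-NC for 17 members, against 29.8% of all named genes and 41.7% of the better expressed ones, on shNrf3-HFD for 11, against 21.4% and 22.6%, and on shNrf3-NC for 3, against 24.1% and 21.3%. A bulk array cannot tell fewer cells of a type from less RNA per cell, and this holds for every level given here.

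**Figure D1:**
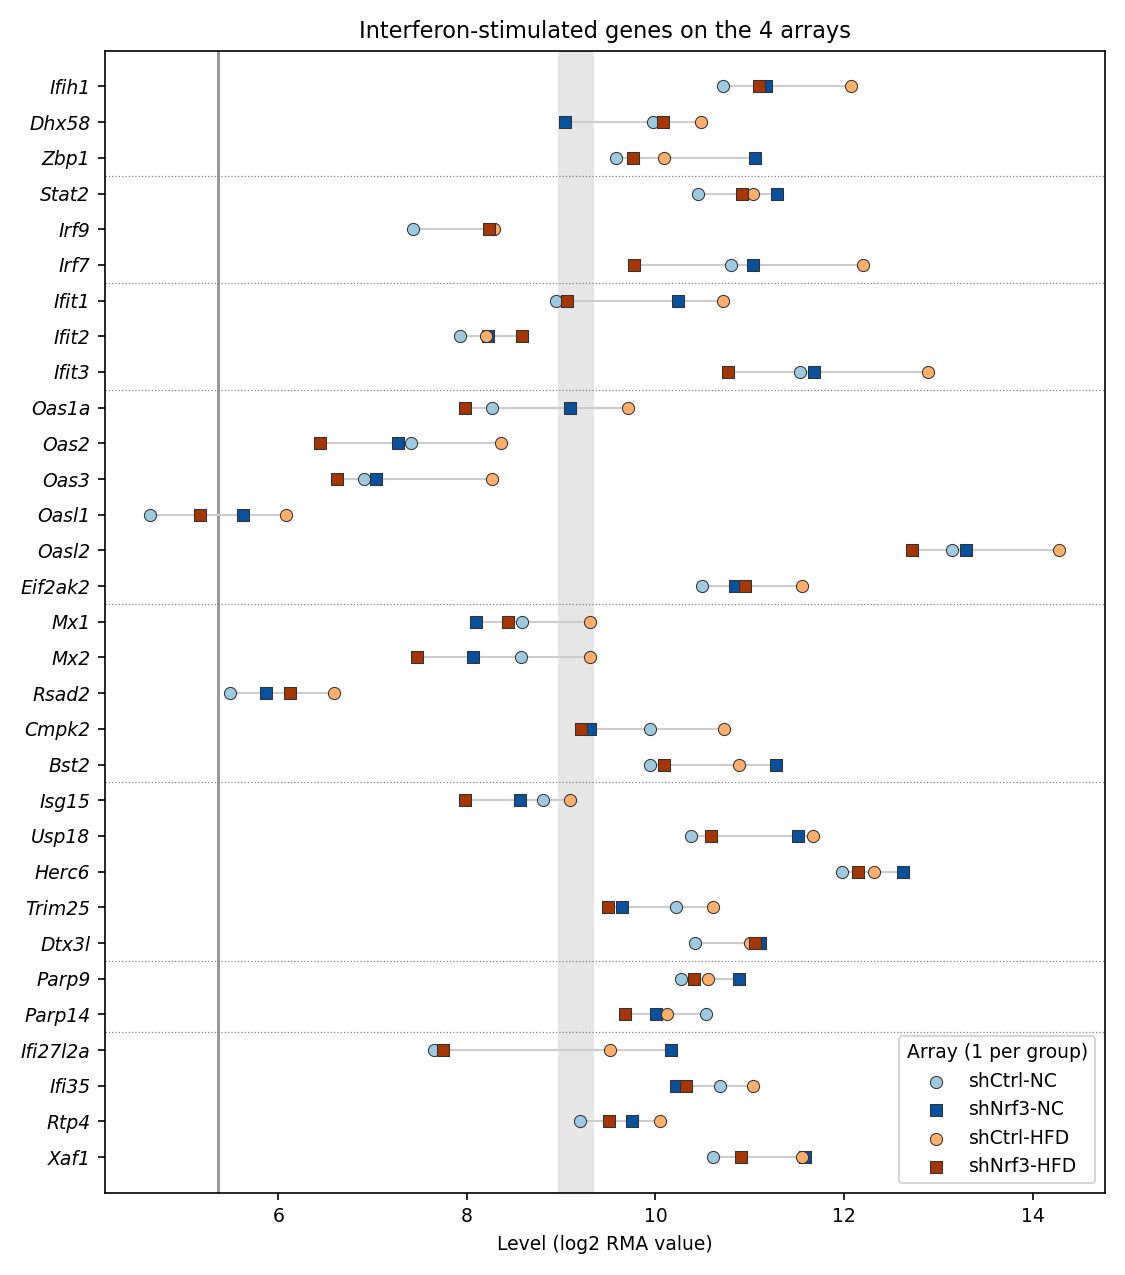
Level (log2 RMA value, x axis) of the 31 interferon-stimulated genes (y axis, grouped by role between dotted lines) on the 4 arrays, 1 point per array with no replicate; circles are shCtrl and squares shNrf3, blue NC and orange or brown HFD. The narrow grey bar spans the negative control medians (5.35 to 5.39) and the wide pale bar their 95th percentiles (8.97 to 9.35), and the orange circle of shCtrl-HFD is the rightmost point for 21 genes.

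The knockdown difference changed sign between the diets for most members. In NC 22 of the 31 members read higher on the array labelled shNrf3, with a median difference of 0.39 that was 0.24 after cyclic loess. In HFD 29 read lower on the array labelled shNrf3, with a median of -0.86. For 20 members the difference was above 0 in NC and below 0 in HFD, a pattern that 25.1% of all named genes and 34.5% of the better expressed genes showed. The reverse pattern was shown by 0 members, against 27% of all named genes. In both diets 9 members were below 0, against 25.1%, and 2 (Ifit2 and Dtx3l) above 0, against 22.7%. After cyclic loess the first pattern held for 16 members, and 17 when differences were counted from the median difference of the better expressed genes. That median was 0.14 in NC and -0.14 in HFD, so the better expressed genes at large leaned the same way.

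In NC 5 members were 2-fold or more higher on the array labelled shNrf3 and 0 were lower, against 8.56% of all named genes higher and 6.68% lower. Among the better expressed genes 13.4% were higher and 4.47% lower, and 15.4% were higher among those at or above the 75th percentile, so the 16.1% of the members lay near this background. In HFD 13 members (41.9%) were 2-fold or more lower and 0 higher. The background there was 5.23% lower and 5.17% higher over all named genes, and 7.11% and 2.51% over the better expressed ones. Members 2-fold or more higher in NC and lower in HFD numbered 3, namely Ifit1, Usp18 and Ifi27l2a, against 0.533% of all named genes. Another 10 were lower in HFD and within 2-fold in NC, as were 800 of the 19505 named genes. Higher in NC and within 2-fold in HFD were 2 members and 1450 named genes, a like share. Within 2-fold in both diets lay 16 members and 14938 named genes. Nearest the limit in NC lay Usp18 past 2-fold (1.13) and Xaf1 within it (0.97). In HFD these were Usp18 past 2-fold (-1.08) and Ifih1 within it (-0.97). Oasl1 (0.99 in NC) was counted within 2-fold, but it read below the control median on shCtrl-NC, so its difference there is a bound.

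**Figure D2:**
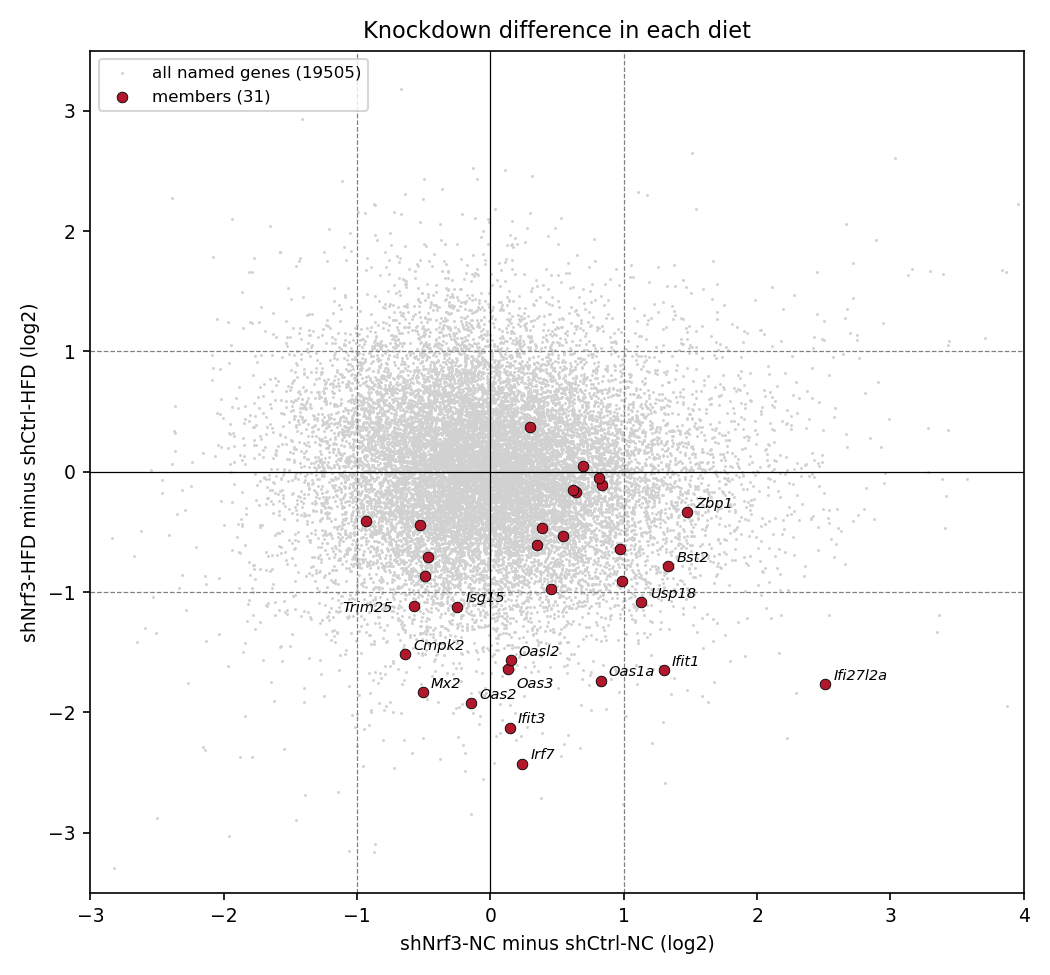
Knockdown difference in NC (x axis, shNrf3-NC minus shCtrl-NC, log2) against that in HFD (y axis, shNrf3-HFD minus shCtrl-HFD, log2) for the 31 members (red) and all 19505 named genes (grey); the axes do not share an array, dashed lines mark 2-fold, and genes outside the axes are not drawn. Of the members 29 lie below the horizontal line at 0, and the labelled genes are those 2-fold or more apart in at least 1 diet.

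Among the sensors, Ifih1, the receptor MDA5 for long double-stranded RNA, read 10.72 on the array labelled shCtrl-NC, 11.17 on shNrf3-NC, 12.07 on shCtrl-HFD and 11.10 on shNrf3-HFD. The array labelled shCtrl-HFD stood 0.90 above the next. Zbp1, which senses Z-form nucleic acid and can start cell death, read 9.58, 11.05, 10.09 and 9.76. It was 2.78-fold higher with shNrf3 in NC and differed by -0.34 in HFD, so here the array labelled shNrf3-NC stood out. Dhx58, the helicase LGP2 that regulates RNA sensing, read 9.97, 9.04, 10.48 and 10.08. Its knockdown difference was below 0 in both diets (-0.93 and -0.41), and its lowest reading was on the array labelled shNrf3-NC.

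Of the transcription factors, Irf7, which drives the induction of interferon-alpha genes, had the largest knockdown difference in HFD of all 31 members. It read 10.80 on the array labelled shCtrl-NC, 11.04 on shNrf3-NC, 12.20 on shCtrl-HFD and 9.78 on shNrf3-HFD. Its level was 5.37-fold lower with shNrf3 in HFD (difference -2.43) and differed by 0.24 in NC. Stat2 and Irf9, which belong to the complex that binds interferon-stimulated promoters, read differently. Stat2 read 10.45, 11.29, 11.03 and 10.92, and Irf9 read 7.43, 8.24, 8.29 and 8.23. For both the array labelled shCtrl-NC was the low one and the other 3 lay close together. Their HFD knockdown differences of -0.11 and -0.05 turned to 0.03 and 0.08 after cyclic loess, so no direction is read from them.

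The Ifit proteins act in complexes, of which Ifit1 binds RNA that lacks host cap marks, and their genes lie in 1 cluster. Ifit1 read 8.94 on the array labelled shCtrl-NC, 10.24 on shNrf3-NC, 10.71 on shCtrl-HFD and 9.06 on shNrf3-HFD. It was 2.46-fold higher with shNrf3 in NC and 3.14-fold lower in HFD. Ifit3 read 11.53, 11.68, 12.89 and 10.77, so that it was 4.37-fold lower with shNrf3 in HFD, while its NC difference of 0.14 turned to -0.09 after loess. Ifit2, the immediate neighbour of Ifit3, read 7.93, 8.22, 8.21 and 8.58 and was within 1.30-fold in either diet. These 3 genes of 1 cluster did not read alike, though Ifit2 lay below the 95th percentile of the controls on each array and Ifit3 above it. Ifit3 has a near-identical copy, Ifit3b, whose own probe set differed by -0.06 in NC and -2.55 in HFD, and the readings of the pair cannot be taken as separate.

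Oligoadenylate synthetases make the second messenger that activates RNase L, which degrades RNA. Oas1a read 8.27 on the array labelled shCtrl-NC, 9.10 on shNrf3-NC, 9.71 on shCtrl-HFD and 7.98 on shNrf3-HFD, with copies of like sequence such as Oas1g that make its probe set uncertain. Oas2 read 7.41, 7.27, 8.36 and 6.44, and Oas3, next to it in the genome, read 6.91, 7.04, 8.26 and 6.62. Both lay below the 95th percentile of the controls on each array. Oasl2, an active synthetase of mice, read 13.14, 13.30, 14.28 and 12.72. All 4 had their highest reading on the array labelled shCtrl-HFD and their lowest on that labelled shNrf3-HFD, with knockdown differences in HFD of -1.74, -1.92, -1.64 and -1.56. In NC their differences ran from -0.15 to 0.83, and those of Oas3 and Oasl2 (0.13 and 0.15) changed sign with the scaling. Oasl1, which lacks synthetase activity and restrains Irf7 translation, read 4.64, 5.63, 6.08 and 5.17, below the control median on 2 arrays, so its differences are bounds (0.25 or more in NC, -0.69 or lower in HFD). Eif2ak2, the kinase PKR that stops translation on binding double-stranded RNA, read 10.49, 10.84, 11.56 and 10.94.

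Mx1 and Mx2 encode dynamin-like GTPases that block viral replication, and the RefSeq table of the C57BL/6J genome lists both as transcribed pseudogenes. Mx2 read 8.57 on the array labelled shCtrl-NC, 8.07 on shNrf3-NC, 9.30 on shCtrl-HFD and 7.47 on shNrf3-HFD, and was 3.56-fold lower with shNrf3 in HFD. Mx1 read 8.59, 8.09, 9.30 and 8.44. Both were lower with shNrf3 in each diet (-0.51 and -1.83 for Mx2, -0.49 and -0.86 for Mx1), so neither changed sign. Cmpk2, a mitochondrial nucleotide kinase, likewise read lower in both diets (9.95, 9.31, 10.73 and 9.21, differences -0.64 and -1.52). Its neighbour Rsad2 encodes viperin, an enzyme that makes an antiviral nucleotide. Rsad2 read 5.49, 5.88, 6.60 and 6.13, near the control median, with differences of 0.39 and -0.47. Bst2, or tetherin, which holds budding virus at the cell surface, read 9.94, 11.27, 10.88 and 10.10. It was 2.51-fold higher with shNrf3 in NC and differed by -0.79 in HFD.

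Isg15 is a ubiquitin-like protein that is joined to other proteins by the ligase Herc6 and removed by Usp18, which also damps signalling at Ifnar2. Isg15 read 8.81 on the array labelled shCtrl-NC, 8.56 on shNrf3-NC, 9.10 on shCtrl-HFD and 7.98 on shNrf3-HFD, a difference of -0.25 in NC and -1.12 in HFD. Usp18 read 10.38, 11.51, 11.67 and 10.59, so that the arrays labelled shNrf3-NC and shCtrl-HFD were alike within 0.16 and the other pair lay lower. Herc6 read 11.98, 12.62, 12.32 and 12.15, a range of 0.64 over the arrays. Trim25, a ubiquitin ligase of RNA sensing, read 10.22, 9.65, 10.61 and 9.50, and was lower with shNrf3 in both diets (-0.58 and -1.11). These members differed in pattern although Isg15, Usp18 and Herc6 serve 1 modification.

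Dtx3l is a ubiquitin ligase that works as a pair with Parp9, and the genes are adjacent. Dtx3l read 10.42 on the array labelled shCtrl-NC, 11.11 on shNrf3-NC, 11.01 on shCtrl-HFD and 11.06 on shNrf3-HFD, and Parp9 read 10.27, 10.89, 10.56 and 10.41. In NC they differed by 0.69 and 0.62. Parp14, which adds single ADP-ribose units and lies on the other side of Dtx3l, read 10.53, 10.002, 10.12 and 9.68 and differed by -0.53 in NC. It was the only one of the 31 members with its highest reading on the array labelled shCtrl-NC.

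Ifi27l2a, a small hydrophobic protein gene, had the widest range of the 31 members. It read 7.65 on the array labelled shCtrl-NC, 10.17 on shNrf3-NC, 9.51 on shCtrl-HFD and 7.75 on shNrf3-HFD, 5.71-fold higher with shNrf3 in NC and 3.39-fold lower in HFD. Xaf1, which promotes apoptosis, had the same division of arrays in a narrower range (10.61, 11.58, 11.55 and 10.91). Rtp4, a chaperone of membrane receptors, read 9.20, 9.75, 10.05 and 9.51. Ifi35, which binds Nmi, read 10.69, 10.21, 11.03 and 10.32 and was lower with shNrf3 in both diets (-0.47 and -0.71).

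Between diets the members differed in opposite ways under the 2 hairpins. These comparisons use the same 4 arrays as the knockdown differences and give no independent support to them. With shCtrl 30 of 31 members read higher in HFD than in NC, against 51% of all named genes and 66.3% of the better expressed ones. Parp14 (-0.41) was the exception, and the median difference was 0.86. At 2-fold or more 12 were higher (38.7%) and 0 lower, against 9.11% and 7.88% of all named genes and 14.7% and 3.82% of the better expressed ones. Largest were Ifi27l2a (1.86), Ifit1 (1.77), Oas1a (1.44) and Irf7 (1.41). Oasl1 (1.44) was among the 12 only through a reading below the control median, and as a bound it was 0.70 or more. After cyclic loess 9 were 2-fold or more higher, and 28 of 31 were above 0.

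With shNrf3 25 of 31 members read lower in HFD and 6 higher, where 52% of all named genes read higher, and the median was -0.46. Of the 31, 6 were 2-fold or more lower (19.4%), against 4.13% of all named genes and 5.04% of the better expressed ones, and 1 was higher, against 3.78%. The 6 were Ifi27l2a (-2.42), Zbp1 (-1.30), Irf7 (-1.26), Bst2 (-1.18), Ifit1 (-1.18) and Oas1a (-1.12). The 1 higher was Dhx58 (1.04), which lay within 2-fold when each array was centred on its median. In all 24 members were above 0 with shCtrl and below 0 with shNrf3, against 26% of all named genes and 35.8% of the better expressed ones.

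**Figure D3:**
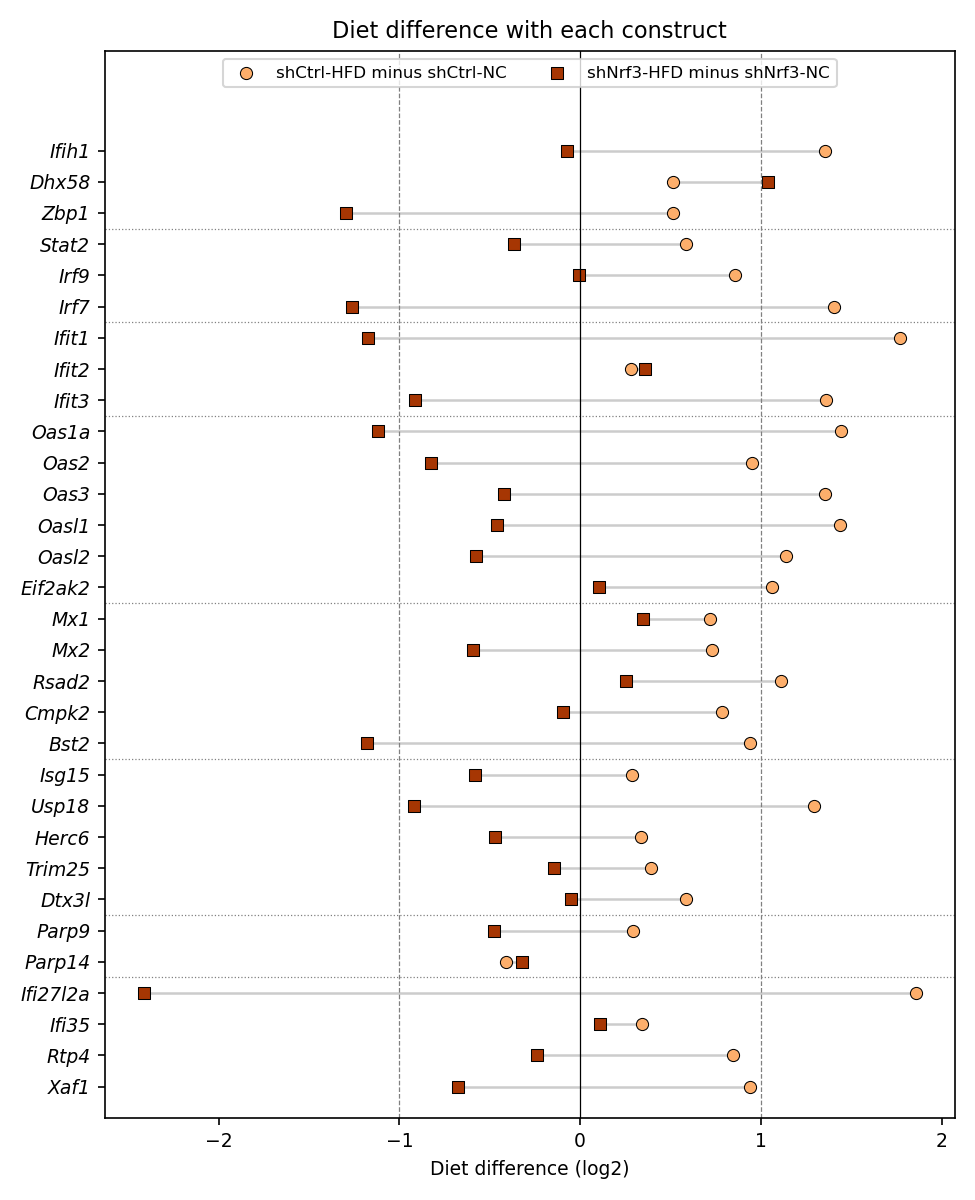
Diet difference (HFD minus NC, log2, x axis) of the 31 members (y axis, grouped by role) with shCtrl (orange circles) and with shNrf3 (brown squares), each point the difference of 2 single arrays; dashed lines mark 2-fold. The circles lie above 0 for 30 members and the squares below 0 for 25.

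The construct by diet difference, that is the HFD knockdown difference less the NC one, puts the pattern in 1 value per gene. Its median over the members was -1.08, and 16 of 31 (51.6%) were at -1 or lower and 0 at 1 or higher. Over all named genes 14.4% were that low and 13.8% that high, and over the better expressed genes 21.9% and 6.35%. The lowest members were Ifi27l2a (-4.28), Ifit1 (-2.95), Irf7 (-2.67) and Oas1a (-2.56). Oasl1 (-1.90) was among the 16 only through readings below the control median. Only Dhx58 (0.52), Parp14 (0.09) and Ifit2 (0.08) were above 0, and the last 2 were below 0 after centring. No error term can be had for this value, since all 4 arrays enter it.

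Among the ligands of the pathway, 18 of 19 listed type I and III interferon genes were measured, and 17 read below the control median on each array, Ifnb1 among them at 3.54 to 4.03. Ifna5, of a family of near-identical copies, read 6.77, 6.20, 5.69 and 7.07, lowest where most members were highest. At these levels the arrays do not resolve the ligands. Of the receptor and JAK-STAT genes 12 of 13 were measured. In NC 2 were 2-fold or more higher with shNrf3, Ifnar1 (8.80, 10.02, 10.04 and 9.95) and Ifnar2 (12.80, 13.82, 13.12 and 13.27), and in HFD 0 passed 2-fold. That is near the 13.4% of the better expressed genes, and 1 of the 12 passed after cyclic loess or when counted from the median difference of those genes. Tyk2 read 8.18, 8.54, 9.50 and 8.73, highest on the array labelled shCtrl-HFD, while Jak1 differed by -0.29 and -0.37.

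Of 20 genes that induce interferon 18 were measured, with 5 higher by 2-fold or more with shNrf3 in NC and 0 past 2-fold in HFD (medians 0.60 and 0.20). Over all named genes 8.56% were higher in NC, and in HFD 5.17% were higher and 5.23% lower. Over the better expressed genes these shares were 13.4%, 2.51% and 7.11%. Mavs, the adaptor of the RNA sensors, read 8.21, 9.75, 9.77 and 8.90, and Unc93b1, which carries nucleic acid receptors to endosomes, read 7.39, 9.14, 9.20 and 8.64. Tlr7, a receptor for single-stranded RNA, had a difference of 1.71 in NC, against -0.30 in HFD. The DNA sensor gene Cgas (1.54 in NC and 0.36 in HFD) and Tlr8 (2.19 and 0.42) were higher with shNrf3 in both diets. Sting1 differed by 0.81 and -0.22, Ddx58 (RIG-I) by 0.33 and -0.50, Irf3 by 0.50 and 0.44 and Irf8 by 0.44 and 0.02. Of 13 genes that restrain the response 12 were measured, 5 of them 2-fold or more higher with shNrf3 in NC, and 1, the RNA editor Adar (-1.03), lower in HFD. That 1 is 8.33% of the 12, near the 7.11% of the better expressed genes. The call of Adar was lost after cyclic loess and when counted from the median difference. Among the 5 were Ptpn6 (1.71 and 0.24), Rnaseh2b (2.26 and 0.97) and Socs1 (1.82 and 0.53), of which the last 2 read below the control median on shCtrl-NC.

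A second list of 68 interferon-stimulated genes with no gene in common with the members had 64 measured, though some, such as Ifit3b and Oas1g, are near copies of members. The median level over the 64 was 9.48 on the array labelled shCtrl-NC, 10.60 on shNrf3-NC, 10.27 on shCtrl-HFD and 10.02 on shNrf3-HFD. Unlike the members, this list thus read highest on shNrf3-NC and lowest on shCtrl-NC. In NC 22 were 2-fold or more higher with shNrf3 and 2 lower (median 0.65), and in HFD 2 were higher and 14 lower (median -0.43). In NC 13.4% of the better expressed genes were higher with 4.47% lower, and in HFD 2.51% were higher with 7.11% lower. Between diets 26 were higher and 0 lower in HFD with shCtrl, and 0 higher and 9 lower with shNrf3, where the better expressed genes had 14.7% higher and 3.82% lower, and 1.82% and 5.04%. The construct by diet difference had a median of -1.21, with 33 at -1 or lower, against 21.9% of the better expressed genes. Parp10, an ADP-ribosyltransferase, read 7.76, 9.43, 10.28 and 8.88. Ube2l6, the conjugating enzyme for Isg15, read 8.55, 10.82, 10.26 and 9.57, and Ms4a4c read 9.81, 12.21, 12.50 and 12.11. These 3 were named for the size of that difference, so their order of arrays follows from the choice.

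Genes of the interferon-gamma response and antigen presentation, of which 36 of 42 were measured, stood otherwise in HFD. There 14 were 2-fold or more higher with shNrf3 and 0 lower, with a median of 0.51, where 0 members of the type I list were higher and 13 lower. In NC 27 were higher and 0 lower (median 1.72). Over all named genes 5.17% were 2-fold or more higher with shNrf3 in HFD and 8.56% in NC. Over the better expressed genes 2.51% and 13.4% were higher, with 7.11% and 4.47% lower. H2-DMb1 (4.67 and 1.62) and H2-DMa (3.43 and 1.06), which load peptides on MHC class II, were higher in both diets. Psmb9, an immunoproteasome subunit (4.14 and 0.15), and the chemokine gene Cxcl11 (2.46 and 0.08) were past 2-fold in NC and within it in HFD. The difference between the lists was not tested, as no replicate allows it, and none of the 31 members is in this list. Under each of the 4 scalings tried the HFD median was below 0 for the members (-0.89 to -0.72) and above 0 for these genes (0.48 to 0.65).

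**Figure D4:**
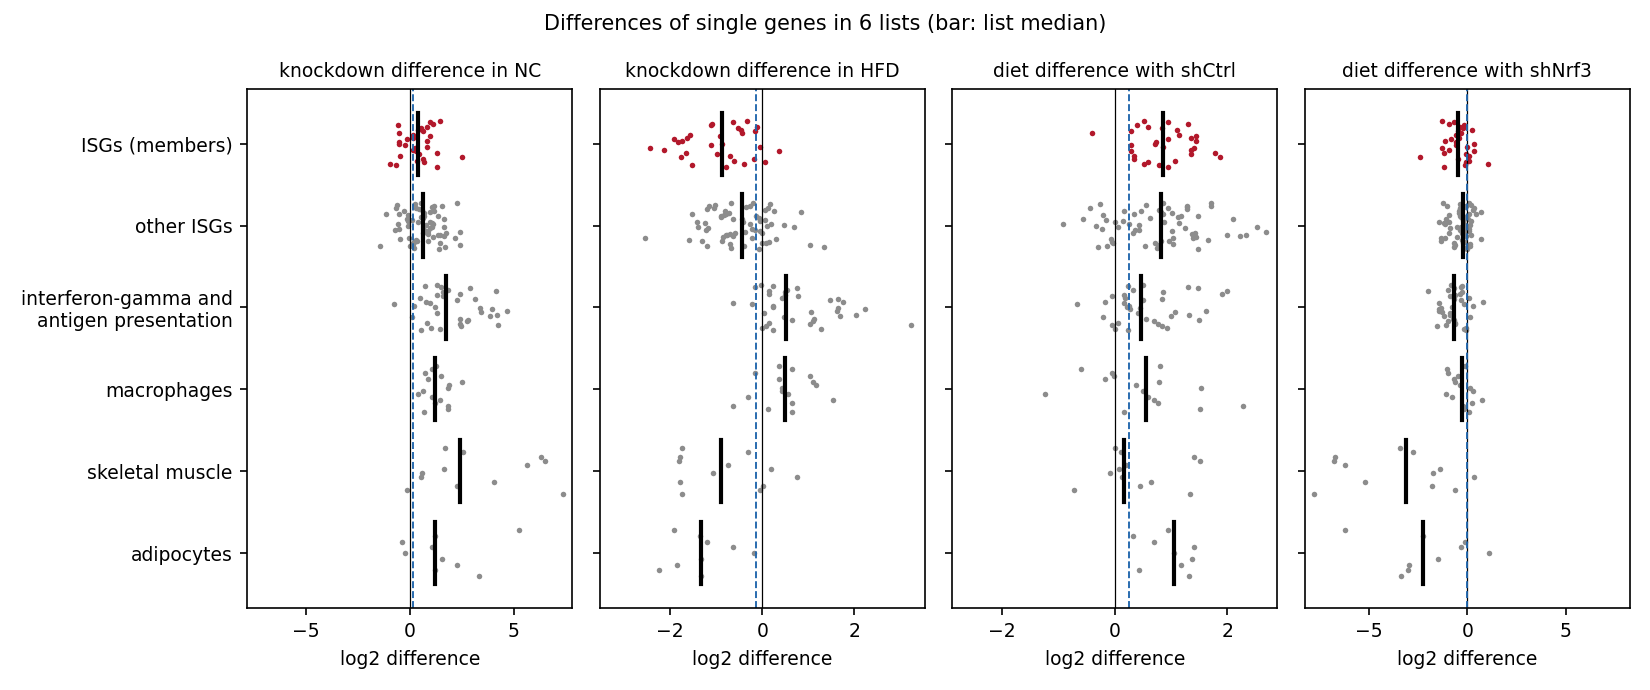
Log2 differences (x axis, with its own range in each panel) of the measured genes of 6 lists (y axis, 1 point per gene, spread vertically for view) in the 4 comparisons of 2 arrays; black bars are list medians and the dashed blue line the median of the 9948 genes at or above the median level of all rows. In HFD the knockdown medians are -0.86 for the members, 0.51 for the interferon-gamma list and 0.49 for macrophage markers.

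Markers of other cells differed between the same arrays, and their part in the results above was not tested. Of 16 measured macrophage and monocyte markers 11 were 2-fold or more higher with shNrf3 in NC and 4 in HFD, with 0 lower (medians 1.23 and 0.49). Their summed level (log2 of the sum) was 15.75 on the array labelled shCtrl-NC, 17.18 on shNrf3-NC, 15.97 on shCtrl-HFD and 16.75 on shNrf3-HFD. Skeletal muscle markers (12) had summed levels of 10.62, 14.01, 10.75 and 9.66, with 9 higher in NC and 6 lower in HFD by 2-fold. Of these 12 markers 7 read below the control median on shCtrl-NC, 0 on shNrf3-NC, 4 on shCtrl-HFD and 7 on shNrf3-HFD. Above the 95th percentile of the controls read 1 of them on shCtrl-HFD and 0 on shNrf3-HFD, so their HFD differences lie near background level. Adipocyte markers (9 of 10 measured) had summed levels of 14.89, 16.44, 16.01 and 14.52, with 7 higher in NC and 7 lower in HFD. Over all named genes 8.56% were 2-fold or more higher in NC, and in HFD 5.17% were higher and 5.23% lower. Over the better expressed genes these shares were 13.4%, 2.51% and 7.11%. The summed level of the members was 15.27, 15.69, 16.19 and 15.17. Of 10 measured plasmacytoid dendritic cell markers, cells known for high interferon output, Ccr9, Spib and Pacsin1 read below the control median on all 4 arrays and Siglech at 5.98 to 6.76. Only Tcf4, which other cells also express, read above the 95th percentile of the controls. Median knockdown differences in NC and HFD were -0.64 and -0.34 for renal and epithelial markers, 0.49 and -0.21 for T cells, 0.59 and 1.09 for NK cells, 0.44 and 0.15 for neutrophils, -0.65 and -1.77 for fibroblasts and -1.28 and -0.65 for endothelium. Conventional dendritic cell and B cell markers had medians of -0.02 in NC, and of -0.02 and 0.39 in HFD. All 5 B cell markers and 5 to 7 of the 10 conventional dendritic cell markers read below the control median on each array, so these are differences at background level. No T cell marker read above the 95th percentile of the controls on any array. Of the 8 NK cell markers 2 to 4 read below the control median on each array, and 0 above that percentile on either shCtrl array. Endothelial markers above it numbered 3 on shCtrl-NC, 2 on shCtrl-HFD and 0 on either shNrf3 array.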

How the data were processed

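Total RNA (100 ng) of each tumor sample was labelled with biotin for Affymetrix arrays, per the labels' protocols. The authors deposited log2 values from RMA in Affymetrix Expression Console, per the submitters' processing notes, with the version not given in the sources used here. Of 28846 rows 5222 are negative controls. The platform annotation gave 1 symbol for 19572 of 22206 transcript rows. Of genes with several probe sets (55) the one with the highest mean was taken. All 31 member IDs matched RefSeq genes of GRCm38.p6, used for names, biotype and gene order only.

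Differences between single arrays were computed with Python 3.11.15, and the steps were checked against known answers. Cyclic loess used limma 3.58.1 in R 4.3.3 on all rows. The better expressed genes are those whose mean was at or above 5.76, the median over all values (9948 genes), with 8.49, the 75th percentile, as a stricter limit. Members entered without a filter, and 30 of 31 passed the first limit, Oasl1 not. Readings below the negative control median were set to it for bounds. Every member is named. Of each other list of the pathway the genes with the largest absolute construct by diet difference are named, with fixed pathway genes, while cell markers, Adar and Ifna5 were named after their values were seen. The motif search was not run, as no promoter table was used here. The members and lists were chosen with earlier results of these data known.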

Additional observations from a re-analysis of the deposited data

Results flagged for a closer look

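The knockdown difference ran in opposite ways in the 2 diets. The median over the members was 0.39 in NC and -0.86 in HFD, and 0.24 and -0.72 after cyclic loess. The better expressed genes leaned the same way, with medians of 0.14 and -0.14. Ifit1 differed by 1.30 and -1.65, Usp18 by 1.13 and -1.08 and Ifi27l2a by 2.51 and -1.76, each past 2-fold both ways. With 1 array in each group the difference between diets was not tested.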

How the results depend on the processing

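Of 53 member differences past 2-fold, all 53 kept their direction after cyclic loess, after centring and when counted from the median difference of better expressed genes (an alternative chosen after seeing the data), and 45, 52 and 45 stayed past 2-fold. With readings below the negative control median set to it, 51 of the 53 stayed past 2-fold. After cyclic loess the NC knockdown median was 0.24, with 1 member 2-fold or more lower, 4 members above 0 in both diets and 2 highest on shNrf3-HFD. Counted from the better expressed genes, the NC median was also 0.24, 1 member was lower and 4 were above 0 in both diets. After centring 0 members were 2-fold or more higher in HFD with shNrf3. With the filter at the 75th percentile the median level on shNrf3-NC was 10.86, 1 member was above 0 in both diets and 0 were highest on shNrf3-HFD. At 1.5-fold 13 members were higher and 2 lower in NC, 20 lower in HFD, 21 higher in HFD with shCtrl, 11 lower in HFD with shNrf3, 25 lower in the construct by diet difference and 7 higher in NC and lower in HFD. Over all named genes the shares at 1.5-fold were, in the same order, 18.8%, 18.9%, 15.7%, 20.9%, 12.7%, 25.9% and 3.39%. Over the better expressed genes they were 26.9%, 13.4%, 20.8%, 31.3%, 14.3%, 37.2% and 5.14%. The cause was not tested. No paired analysis was possible because each group has 1 array, and no array can be left out of a difference of 2. Levels near the negative controls (Oasl1, Rsad2 and the interferon genes) limit what can be read. Oas2, Oas3, Irf9 and Ifit2 also read below the 95th percentile of the controls on each array.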
